A study of Rattus norvegicus with 9 samples.

Results

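The numbered Zfp genes are the rat genes named Zfp with a number alone, most of which encode transcription factors with arrays of C2H2 zinc fingers. They were taken by symbol, without Zfp36, an RNA-binding protein of another class, and with a mean value of at least 10 over the replicates. Of 200 numbered Zfp genes in the table, 185 met that minimum and 15 did not, among 18420 genes in all and 13647 with a mean of at least 10. Messenger RNA was sequenced from the cortex of the kidney in ZDF fa/fa rats, labelled diabetic, a strain whose leptin receptor is defective and which grows obese. All 9 replicates carry the label Medical Bypass and share that strain, tissue and diabetic status. No other group was analysed here, so the replicates were compared with each other. The labels give no drug, dose, time, age, sex or batch, and do not say whether each replicate is 1 animal, so the p-values cover no more than the variation among these libraries, part of which may be technical.

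C2H2 zinc fingers are short folds held by a zinc ion, and an array of them reads a stretch of DNA. Many of the genes also encode a KRAB domain, which recruits the corepressor Trim28 and through it the histone methyltransferase Setdb1 and heterochromatin proteins, best known for silencing transposable elements. Others in the series of numbers lack that domain and act as activators, chromatin-bound scaffolds, RNA-binding proteins or ubiquitin ligases. The genes lie in many clusters of related copies, so reads that match more than 1 copy are a known difficulty in counting them.

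Beside the genes, the table holds rows that count reads given to no gene. The no_feature row counts aligned reads that met no counted feature, which by the counting tool's usual setting are reads outside annotated exons, in introns or between genes. Which setting was used is not stated in the labels. The alignment_not_unique row counts reads that aligned to more than 1 place, called multiply aligned reads here. Values are reads divided by the library's size factor, with 10757440 to 43071223 reads in genes per library. The multiply aligned row stood at 5725082 in replicate 2, the lowest, 6891994 at the median and 9412053 in replicate 5, the highest. The no_feature row stood at 9401102 in replicate 5, 11733595 at the median and 12649854 in replicate 3. Replicate 5 held an extreme value on both rows, and results are given with and without it. Across the 9 replicates the rows ran against each other, with a Pearson r of -0.83 (two-sided exact permutation p = 0.0150, adjusted p = 0.0375 over 6 relations) and a Spearman rho of -0.75 (exact permutation p = 0.0255, adjusted p = 0.0765). Without the 2 replicates farthest from the median no_feature value, 3 and 5, r was -0.69, and without replicate 5 alone it was -0.56.

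The members were expressed at modest levels, with means from 15.7 to 2844 and a median of 219.3, against a median of 481.9 over all genes tested. Zfp503, a developmental corepressor, had the highest mean at 2844 ± 516.9 (SD, n = 9). Zfp91, a ubiquitin ligase of the NF-kB pathway, followed at 2495 ± 426.5. The nuclear nucleic acid-binding protein Zfp638 averaged 2096 ± 588.4 and the kinetochore protein Zfp207 1796 ± 232.6. Zfp445, a KRAB protein that protects genomic imprints, averaged 1424 ± 341.5. Just above the minimum stood Zfp300 at 15.7, Zfp365 at 20.7 and Zfp583 at 22.1, and just below it Zfp483 at 8.81, Zfp791 at 7.37 and Zfp711 at 6.64. The highest replicate exceeded the lowest by a median of 2.14-fold over the members, from 1.17-fold to 9.45-fold, against 2.01-fold over all genes tested with no value of 0.

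The members did not vary as a single block. The mean correlation over 17020 pairs of members was 0.11 (jackknife standard error over replicates 0.0435), with 33.7% of pairs above 0.5 and 20.5% below -0.5, and the mean over all genes tested was 0.00054. Without replicate 5 the members' mean was 0.0717, and with all libraries scaled to the same total it was 0.25. Equal totals shifted the median gene tested by -0.12 to 0.16 between libraries. No mean over all genes is given for that scaling, so 0.25 has no background here. The first principal component of the members held 54.8% of their variance, against 46.1% in all genes tested, and without replicate 5 these were 49.0% and 42.2%. A large set of members therefore shared 1 pattern and a smaller set ran against it. Relative to each gene's own mean on the log2 scale, the median member was highest in replicate 2 at 0.16 and replicate 3 at 0.14, and lowest in replicate 5 at -0.38 and replicate 8 at -0.15. In replicate 5, 131 of 185 members lay below their own mean, and in replicate 2, 51 did. The median over all genes tested stayed between -0.02 and 0.02. That small range depends on the scaling by size factors, since equal totals widened it, and is no separate result. Replicate 5 held the lowest value of 97 members (52.4%), against 24.1% of all genes tested, and the highest value of 23 members (12.4%), against 22.1%.

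The relation of each gene to the multiply aligned row was fitted with limma across all genes tested, as the log2 change in level per SD of the row, which is a 1.17-fold step in multiply aligned reads. As that row rose, 67 of 185 members fell (36.2%) and 20 rose (10.8%), at an adjusted p under 0.05. Of all genes tested, 20.1% fell and 18.0% rose (38.0% in either direction, against 47.0% of members), so a relation with this row was common in these libraries and the members' share lay further to the falling side. The median slope was -0.16 in the members and 0.02 in all genes tested, and 129 members had a negative slope. Without replicate 5, 26 members fell (14.1%) and 4 rose (2.16%), against 10.9% and 4.94% of all genes tested (15.8% in either direction), so the shares that fell lay closer together. All 26 and all 4 were among those called with 9 replicates. All of the 67 and the 20 kept the sign of their slope, and of all 185 members 168 did. Both fits use the same libraries but for replicate 5, and the sets were chosen by the first fit. The overlap is therefore no separate support.

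**Figure D1:**
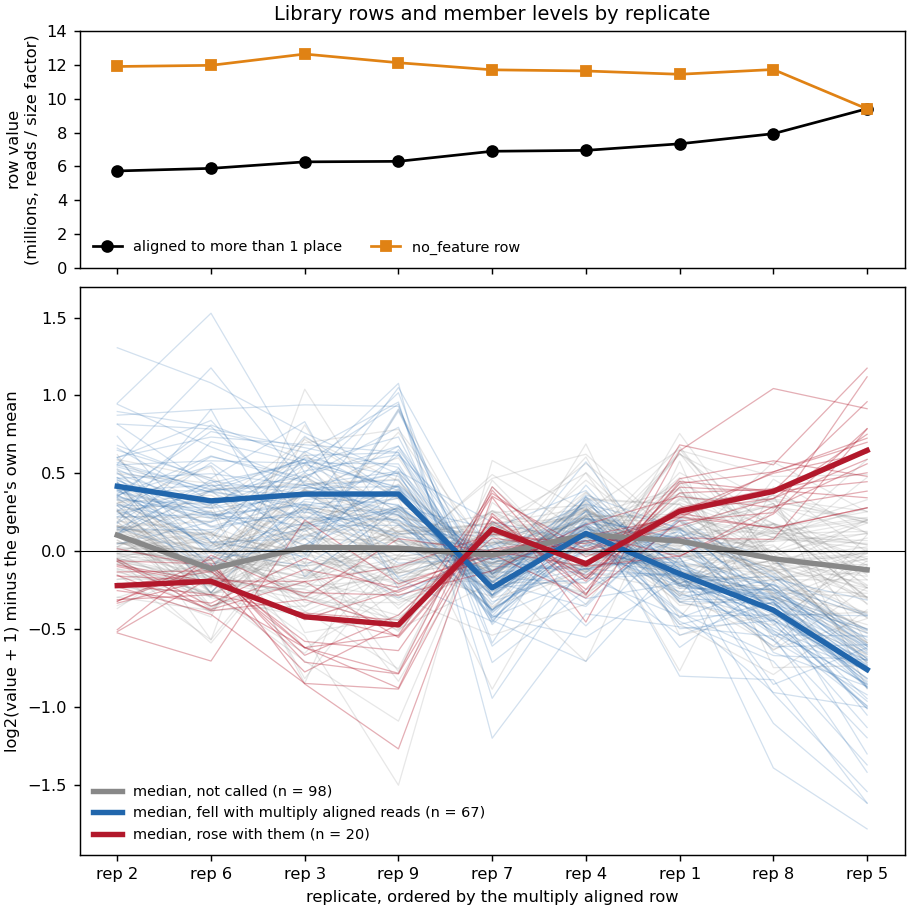
The upper panel shows the multiply aligned and no_feature rows in reads per size factor, in the unit marked on the axis, and the lower panel each member's log2(value + 1) minus its own mean, with replicates ordered by the multiply aligned row and thick lines for the medians of 67 members that fell, 20 that rose and 98 not called. In replicate 5 the median of the falling set stands at -0.76 and that of the rising set at 0.65, a separation that the choice of the sets fixes.

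**Figure D2:**
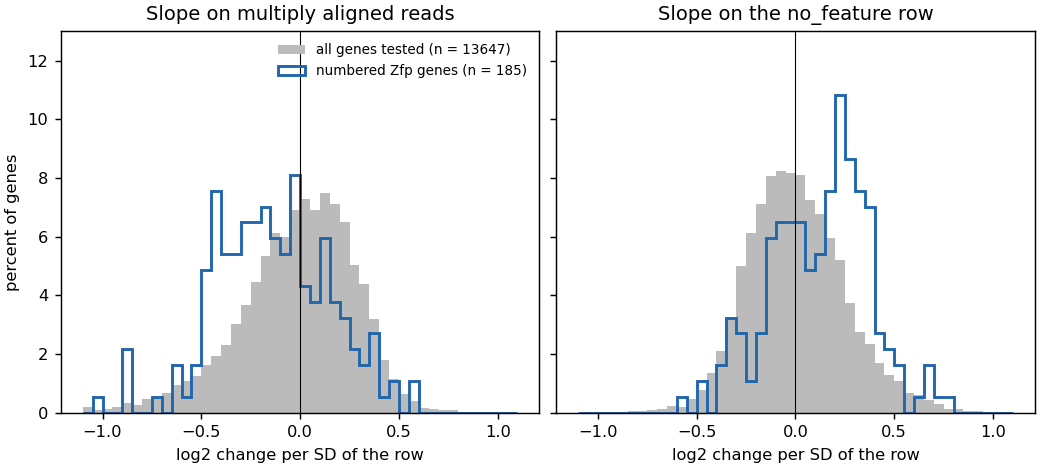
Histograms of the fitted slopes, in log2 change per SD of the row, for 185 numbered Zfp genes (blue outline) and 13647 genes tested (grey), as percent of genes. The members' medians are -0.16 on multiply aligned reads and 0.16 on the no_feature row, and those of all genes tested 0.02 and -0.01.

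Among the members that fell, Zfp597 had the steepest slope. Its level was 8.05 in replicate 5, 32.3 at the median and 76.1 in replicate 2, and its slope was -1.03 ± 0.12 (log2 per SD of the row ± SE, limma adjusted p = 0.000445). Its 4 highest replicates, 2, 6, 3 and 9, were those with the fewest multiply aligned reads. Zfp800 ran from 69.5 in replicate 5 through a median of 198.4 to 320.8 in replicate 2, with a slope of -0.75 ± 0.08 (limma adjusted p = 0.000366). The same 4 replicates held its highest levels. Zfp236 ran from 65.2 to 270.7 with a slope of -0.63 ± 0.08, and Zfp507 from 82.7 to 279.9 with a slope of -0.57 ± 0.09. Zfp292 stood at 429.7 in replicate 5, 827.0 at the median and 1101 in replicate 6 (slope -0.47 ± 0.07). Zfp131, a BTB domain zinc finger protein, ran from 358.7 to 898.2 (slope -0.40 ± 0.06), and Zfp318, which acts on the choice between IgM and IgD in B cells, from 267.2 to 647.1 (slope -0.40 ± 0.06). Zfp26, Zfp266 and Zfp810 completed the 10 with the largest statistics, with slopes between -0.50 and -0.44. Each of these 10 fell at an adjusted p between 0.000366 and 0.00110 in limma, was lowest in replicate 5, and also fell without it, with adjusted p between 0.00464 and 0.0290.

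The widest ranges belonged to members of the same direction with means under the members' median of 219.3. Zfp597 differed 9.45-fold between replicates, Zfp871 7.94-fold, Zfp300 7.82-fold, Zfp136 6.93-fold and Zfp366, a nuclear receptor corepressor known from dendritic cells, 6.12-fold. Their slopes ran from -1.03 to -0.86, and each also fell without replicate 5. All 5 were lowest in replicate 5, where 1 read was worth 0.732, at 30.7 for Zfp871 and 3.66 to 8.78 for the others. Counting error is a larger part of the spread of those others than of Zfp871, which averaged 105.7. Near the minimum mean, Zfp583 (12.4 to 43.8, slope -0.16 ± 0.17, limma adjusted p = 0.499) and Zfp365 (10.9 to 36.4, slope -0.43 ± 0.17, adjusted p = 0.0644) were not called.

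The 20 members that rose as multiply aligned reads rose were Zfp213, Zfp219, Zfp276, Zfp358, Zfp394, Zfp414, Zfp428, Zfp444, Zfp503, Zfp511, Zfp513, Zfp524, Zfp580, Zfp593, Zfp628, Zfp637, Zfp688, Zfp691, Zfp771 and Zfp787. All are listed here, those outside the naming rule after their values were seen. Zfp771 had a level of 217.4 in replicate 9, 343.4 at the median and 910.7 in replicate 5, with a slope of 0.60 ± 0.12 (limma adjusted p = 0.00253). Zfp787 ran from 424.3 in replicate 9 through 578.6 to 972.2 in replicate 5 (slope 0.36 ± 0.06, limma adjusted p = 0.00121). Replicates 1, 8 and 5 held the 3 highest levels of both genes. Zfp511 ran from 151.3 to 422.4 (slope 0.40 ± 0.10, without replicate 5 adjusted p = 0.0513), Zfp593, a ribosome assembly factor, from 187.3 to 408.5 (slope 0.32 ± 0.07), Zfp444 from 398.1 to 929.7 (slope 0.30 ± 0.07) and Zfp503 from 1973 to 3658 (slope 0.22 ± 0.06). Zfp593, Zfp787 and Zfp511 were least like the rest, with correlations of -0.92, -0.90 and -0.86 with the mean of the other members. The 4 that also rose without replicate 5 were Zfp524, Zfp691, Zfp771 and Zfp787.

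**Figure D3:**
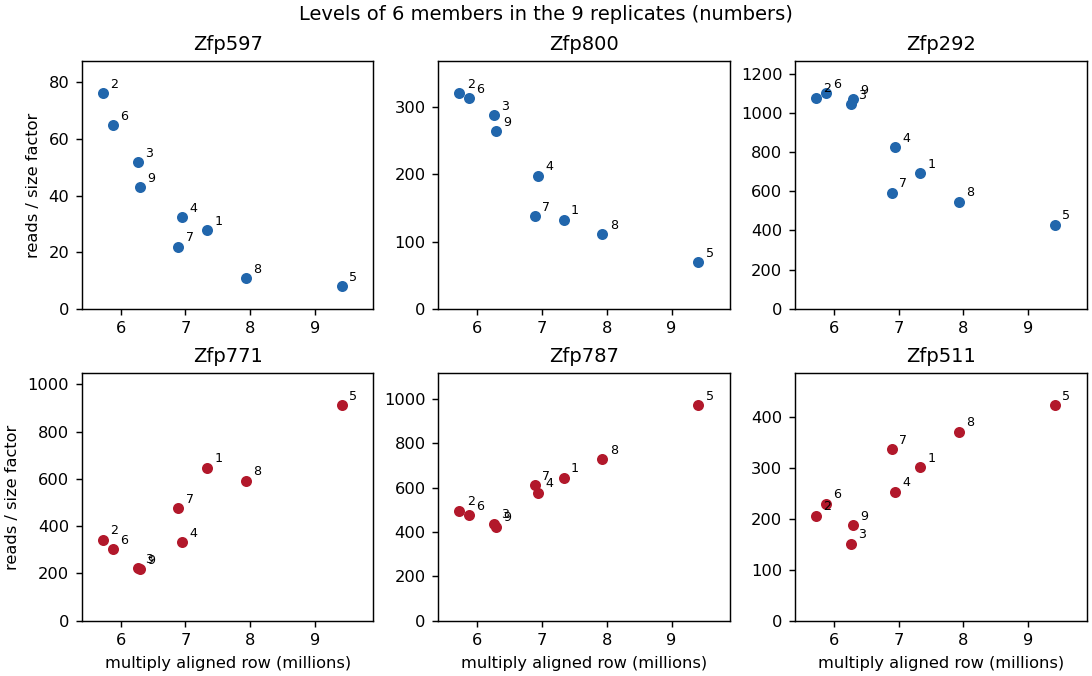
Levels of 3 members that fell (blue) and 3 that rose (red) in reads per size factor, against the multiply aligned row in the unit marked on the axis, with 1 numbered point per replicate. Replicate 5 lies farthest right at 9.41, with the lowest level of Zfp597, Zfp800 and Zfp292 and the highest of Zfp771, Zfp787 and Zfp511.

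**Figure D4:**
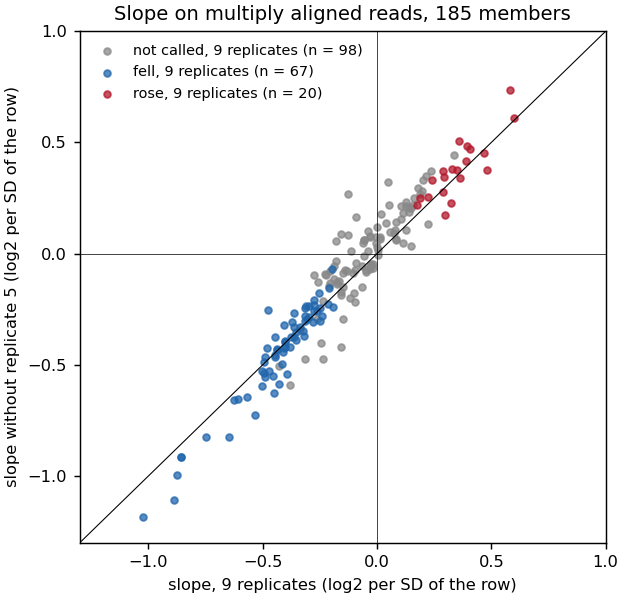
Slope of each of the 185 members on multiply aligned reads with 9 replicates (horizontal) against the slope without replicate 5 (vertical), both in log2 per SD of the row, with the diagonal marking equality. All members called with 9 replicates lie on the same side of 0 on both axes, which the shared libraries and the choice of the sets make likely.

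Of the 5 most abundant members, Zfp91 (1980 to 3115, slope -0.19 ± 0.06, limma adjusted p = 0.0275), Zfp638 (1326 to 3071, slope -0.30 ± 0.09, adjusted p = 0.0192) and Zfp445 (889.4 to 1965, slope -0.31 ± 0.07, adjusted p = 0.00350) fell and Zfp503 rose. For Zfp207 (1411 to 2138) the slope was -0.13 ± 0.06 (limma adjusted p = 0.102). Without replicate 5, limma gave adjusted p of 0.113 for Zfp91, 0.175 for Zfp638, 0.0690 for Zfp445 and 0.101 for Zfp503.

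Members with a well-known role were also read off, chosen after their values were seen. Zfp57, the KRAB protein that guards imprinted DNA methylation with Zfp445, stood at 19.0 in replicate 5, 39.1 at the median and 62.5 at the highest, and fell (slope -0.49 ± 0.13, limma adjusted p = 0.0135). Zfp644, a partner of the H3K9 methyltransferases G9a and GLP, ran from 466.3 to 921.3 and fell (slope -0.32 ± 0.06, adjusted p = 0.00270), also without replicate 5 (adjusted p = 0.0404). Zfp148, a promoter-binding factor, fell (slope -0.21 ± 0.05, limma adjusted p = 0.00733), as did Zfp24, known from myelination (slope -0.32 ± 0.08, adjusted p = 0.00815). Without replicate 5 the adjusted p was 0.0872 for Zfp57, 0.0836 for Zfp148 and 0.0598 for Zfp24. Zfp143, an activator of small nuclear RNA genes, had a slope of -0.15 ± 0.06 (limma adjusted p = 0.0784). Zfp410, an activator of the Chd4 gene, had a slope of 0.08 ± 0.05 (adjusted p = 0.206) and differed 1.28-fold between replicates. Zfp598, the ubiquitin ligase that marks collided ribosomes, had a slope of 0.11 ± 0.07 (adjusted p = 0.230). None of these 3 was called.

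On the no_feature row, 0 of 185 members passed in limma, and 0% of all genes tested did. The lowest adjusted p was 0.0577 among the members and 0.0554 among all genes, and 1 SD of this row was a 1.09-fold step. At an unadjusted p under 0.05, limma gave 71 members with a positive slope and 17 with a negative one, 47.6% of members against 34.5% of all genes tested (18.4% positive and 16.2% negative). The median slope was 0.16 in the members and -0.01 in all genes tested. The 10 members with the largest statistics were Zfp26, Zfp35, Zfp131, Zfp318, Zfp473, Zfp612 and Zfp800 with positive slopes and Zfp444, Zfp771 and Zfp787 with negative ones. Zfp35, at 25.6 in replicate 5 and 84.6 in replicate 9, had a slope of 0.47 ± 0.12. Zfp612 (442.9 to 1103) had a slope of 0.33 ± 0.08, and Zfp473 (8.05 to 33.8), which binds the U7 particle that processes histone messages, 0.52 ± 0.13. The slope of Zfp444 was -0.33 ± 0.06. Each of the 10 had an adjusted p of 0.0577 in limma, so none was called. The result depended on the tool and the libraries. On recovered reads, edgeR called 0 members, and of all 13647 genes tested 1 higher and 14 lower. With so few genes called, that 0 says nothing particular to the members. DESeq2 called 44 members higher and 12 lower (11.7% and 7.90% of all genes). Leaving out replicate 8 gave 40 and 12 (11.1% and 8.95% of all genes). Leaving out replicate 5 gave 1 and 0, against 0.865% and 1.20% of all genes (2.07% in either direction). With the row expressed as a share of all counted reads, 63 members rose with it and 14 fell, against 2145 and 1830 of the 13647 genes tested.

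The rows could not be told apart as correlates of the members. With the other row as a covariate, limma called 0 members on either row, with 39 at an unadjusted p under 0.05 on multiply aligned reads (22.0% of all genes tested) and 2 on no_feature (1.37% of all genes). The median member deviation had an r of -0.88 and a rho of -0.75 with the multiply aligned row, and an r of 0.86 and a rho of 0.60 with the no_feature row, over 9 replicates that share 1 size factor each in all of these values. Without replicate 5 these r were -0.72 and 0.53. The small row for reads that overlap more than 1 gene, 36328 to 55235 per library, followed the same course, with an r of -0.96, or -0.95 without replicate 5. Reads in genes had an r of -0.52. The first principal component of the genes that are not members had an r of -0.88 with the median member, and -0.84 without replicate 5. The sign of a component is arbitrary and was set here to rise with the multiply aligned row. The minus sign therefore does not mean that the members ran against the other genes. These values describe 9 libraries and were given no test. In bulk tissue, fewer cells of a type and less RNA per cell cannot be told apart.

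Gene span, the length from first to last base with introns, was longer in the members that fell than in those that rose, given here as a description. RefSeq annotation of GRCr8, a later assembly than the Rnor_5.0 of the submitters' processing notes, was used for lengths and gene order only, and 180 of 185 members and 11592 of 13647 genes tested were matched by name. The median span was 28918 bases over 64 members that fell, 5809 over 20 that rose and 18360 over 96 not called. Of 34 members over 40000 bases long, 24 fell (70.6%) and 0 rose, and of 39 up to 10000 bases, 6 fell (15.4%) and 14 rose (35.9%). All genes tested showed the same order, with 39.9% falling and 3.32% rising over 40000 bases and 2.85% falling and 44.1% rising up to 10000. Between these lengths, 30.4% of the members of 10000 to 20000 bases and 33.3% of those of 20000 to 40000 fell, against 8.37% and 17.0% of all genes. The Spearman rho of span and slope was -0.42 across 180 members and -0.58 across 11592 genes tested, and -0.41 and -0.55 without replicate 5. Genes are not independent replicates, and the differences between members and all genes within a span class were not tested. Zfp800 spans 213530 bases and Zfp292 80281, while Zfp511 spans 4406 and Zfp593 2329. Zfp597, the steepest of those that fell, spans 5675 and Zfp787 25472, against that order. A member's mean level had a rho of 0.33 with its slope, against 0.09 across all 13647 genes tested. Without replicate 5 these were 0.31 and 0.07.

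**Figure D5:**
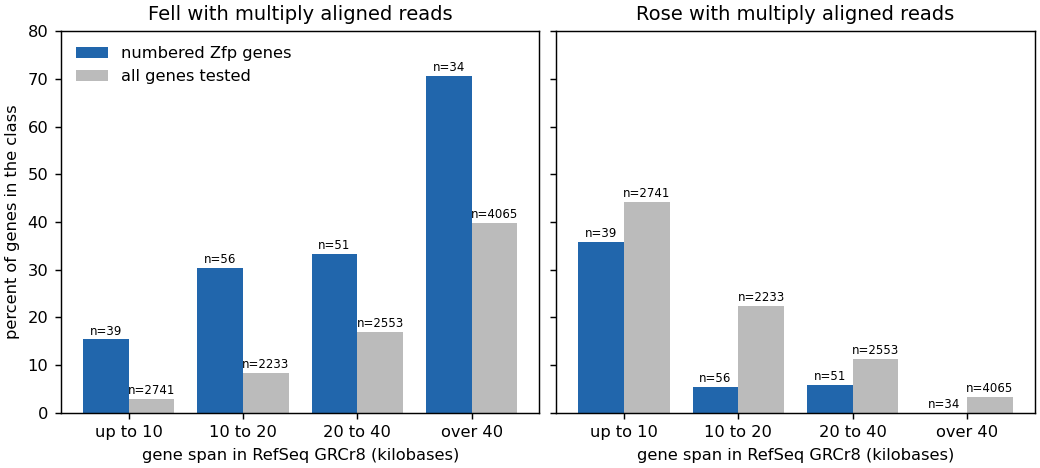
Percent of genes that fell (left) or rose (right) with multiply aligned reads in limma, by gene span in kilobases in RefSeq GRCr8, for numbered Zfp genes (blue) and all genes tested (grey), with the number of genes above each bar. Over 40 kilobases 70.6% of 34 members fell, against 39.9% of 4065 genes.

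Members that lie close together in the genome were more alike than members at large. In the order of protein-coding genes, 98 pairs of members lay at most 5 steps apart and involved 84 of 180 members placed. The median correlation of these pairs was 0.53, against 0.18 over all pairs of members, described without a test because pairs share genes. No such value is given for neighbouring genes outside the members, so whether this is particular to the members was not tested. Zfp24 and Zfp35, next to each other, had an r of 0.95, and Zfp787 and Zfp444, also adjacent, 0.93. Zfp64 and Zfp217, 4 steps apart, had an r of -0.89. These pairs were chosen after their values were seen. Related neighbours can share reads that the counting assigned to neither, and how far that enters these values was not tested. Of the 84, 30 fell and 7 rose with multiply aligned reads, and of the other 96, 34 fell and 13 rose.

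The number of CpG dinucleotides in the promoter was similar in the called sets, as a description without a test. RefSeq promoters of GRCr8, 250 bases before to 50 after the annotated start, were matched for 154 members. The median number of CpG dinucleotides was 18 in the 55 that fell, 19 in the 18 that rose and 18 in the 81 not called, and the median GC content was 56.3%, 58.2% and 57.7%. The choice of background turned the direction of these comparisons. The median was 7 CpG dinucleotides in all 27457 promoters of the table, but 21, with a GC content of 61.0%, in the promoters of genes tested here. Only 9505 of 13647 genes tested were matched to a promoter, under 80%, so a comparison with them is void and no difference of the members from either background is drawn. On either strand, the GC box GGGCGG was found in 41.8% of those that fell, 44.4% of those that rose, 58.0% of those not called, 34.9% of all promoters and 61.8% of the promoters of genes tested. The ETS motif CCGGAAG was found in 11 of 55, 3 of 18 and 16 of 81 members of these sets in 9.22% of all promoters and in 17.3% of those of genes tested. For the members that fell, rose and were not called, then all promoters, the CCAAT box was found in 41.8%, 38.9%, 48.1% and 37.7%, TATAAA in 7.27%, 11.1%, 8.64% and 14.3%, and the CRE palindrome TGACGTCA in 3.64%, 5.56%, 2.47% and 1.91%. In the promoters of genes tested these motifs were found in 37.2%, 6.61% and 2.96%, so for TATAAA too the direction turned with the background. Across 154 members the rho of CpG number and slope was 0.04. The promoters of the 2 members with the largest falling and the 2 with the largest rising statistics are shown 5′ to 3′ on the gene's strand, with GGGCGG and CCGGAAG on either strand in capitals. They lie at chr4:57814160-57814459 (minus strand), chr10:12159283-12159582 (plus), chr1:76791579-76791878 (plus) and chr1:191294280-191294579 (plus) of GRCr8.
Zfp800: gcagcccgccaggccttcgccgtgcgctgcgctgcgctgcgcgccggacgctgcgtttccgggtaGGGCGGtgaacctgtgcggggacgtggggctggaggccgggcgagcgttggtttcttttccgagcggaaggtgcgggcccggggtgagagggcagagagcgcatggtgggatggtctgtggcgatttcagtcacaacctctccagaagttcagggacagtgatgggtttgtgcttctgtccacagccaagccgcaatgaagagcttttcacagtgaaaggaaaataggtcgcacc
Zfp597: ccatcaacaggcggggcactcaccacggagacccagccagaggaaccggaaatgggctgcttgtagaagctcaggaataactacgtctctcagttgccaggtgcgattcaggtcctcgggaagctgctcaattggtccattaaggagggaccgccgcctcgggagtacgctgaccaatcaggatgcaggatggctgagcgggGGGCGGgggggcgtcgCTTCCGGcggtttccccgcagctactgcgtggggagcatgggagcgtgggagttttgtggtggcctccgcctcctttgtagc
Zfp787: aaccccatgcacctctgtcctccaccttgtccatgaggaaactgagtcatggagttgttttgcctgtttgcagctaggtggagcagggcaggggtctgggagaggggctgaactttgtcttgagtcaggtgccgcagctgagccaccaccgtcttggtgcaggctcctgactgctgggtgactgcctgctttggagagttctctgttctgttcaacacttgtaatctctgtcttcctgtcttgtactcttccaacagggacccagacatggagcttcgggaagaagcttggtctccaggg
Zfp771: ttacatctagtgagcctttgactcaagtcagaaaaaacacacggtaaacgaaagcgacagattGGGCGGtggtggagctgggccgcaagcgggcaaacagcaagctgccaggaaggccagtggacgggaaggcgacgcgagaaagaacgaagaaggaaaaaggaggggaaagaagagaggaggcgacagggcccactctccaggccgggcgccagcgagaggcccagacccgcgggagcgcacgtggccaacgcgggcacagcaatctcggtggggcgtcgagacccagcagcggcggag
Zfp800 and Zfp771, with slopes of opposite sign, each had 26 CpG dinucleotides and 1 GC box. Zfp597 had 20 CpG dinucleotides, 1 GC box and 1 ETS motif, and Zfp787 had 3 CpG dinucleotides and neither motif.

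Of 27 tested genes of a list of KRAB corepressors and heterochromatin proteins, 8 fell (29.6%) and 2 rose (7.41%) with multiply aligned reads, against 20.1% and 18.0% of all genes tested, with a median slope of -0.09. Without replicate 5, 4 fell (14.8%) and 0 rose, against 10.9% and 4.94% of all genes tested, so the shares that fell lay closer together. Trim28 itself, the KRAB corepressor, ran from 2795 to 3752 and rose (slope 0.14 ± 0.05, limma adjusted p = 0.0455). Without replicate 5 its slope was 0.19 and the call was lost (limma adjusted p = 0.122). Setdb1 ran from 819.9 to 1102 (slope -0.10 ± 0.05, limma adjusted p = 0.140). Fam208a, a subunit of the HUSH silencing complex, stood at 219.6 at the lowest, 537.1 at the median and 1142 at the highest and fell (slope -0.83 ± 0.09, limma adjusted p = 0.000366), as did the chromatin remodeller Smarcad1 (slope -0.40 ± 0.06), the X-inactivation factor Smchd1 (slope -0.34 ± 0.06) and the nuclear ATPase Morc3 (slope -0.34 ± 0.07). Without replicate 5 the first 3 of these fell and Morc3 had an adjusted p of 0.11 in limma.

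The Zbtb genes, zinc finger proteins with a BTB domain, also fell more often than they rose. Of 36 tested, 13 fell (36.1%) and 5 rose (13.9%), against 20.1% and 18.0% of all genes tested, and without replicate 5, 9 of 36 fell and 2 rose, against 10.9% and 4.94% of all genes. The differences between these families were not tested. Of 13 Klf genes 4 fell and 2 rose, of 6 Zscan genes 1 fell and 0 rose, of 2 Zkscan genes 2 fell, and of 5 Znf genes 2 fell and 2 rose. Of 26 splicing and nuclear speckle genes 8 fell and 0 rose, and 2 fell without replicate 5. Of 66 cytosolic ribosomal protein genes, with a median span of 3210 bases, 53 rose and 0 fell. Only 1 of 14 nuclear-retained RNAs was matched, so that list says nothing here. Among cell type markers, 0 of 9 proximal tubule, 0 of 3 thick ascending limb and 0 of 8 distal tubule and collecting duct genes were called, and none of the 2 blood, 3 adipose and 1 adrenal genes tested. Macrophage genes rose in 3 of 8 (2 of them called without replicate 5), mesangium and smooth muscle genes in 2 of 3 and podocyte genes in 1 of 6, while endothelial genes fell in 2 of 5 (1 of them called without replicate 5) and the 1 lymphocyte gene tested fell. Without replicate 5 no mesangium or podocyte gene was called, and 26 ribosomal protein genes rose. Summed levels ran from 6258 to 9400 for macrophage, 2717 to 6988 for mesangium and smooth muscle, 11872 to 16225 for podocyte, 7112 to 10104 for endothelium and 136.2 to 310.5 for lymphocyte markers, with no matched marker at 0 in all libraries. Proximal tubule markers summed to 308288 to 601945. The part of these cell types in the members' variation was not tested.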

How the data were processed

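Kidney cortex was flash-frozen and strand-marking mRNA libraries were made, per the labels' protocols. HTSeq 0.6.1p1, FastQC 0.11.2, MultiQC 0.9, DESeq2 and the build Rnor_5.0 are listed in the submitters' processing notes. Aligner, strand setting and DESeq2 version: not given in the sources used here. As signal values the authors deposited reads per gene over a size factor per library, with no length correction. Low values were whole multiples of 1 step in each library, and 100% of non-zero values came out whole to within 0.1 read, so reads were recovered by size factor (0.502 to 1.84). Genes overlapping on opposite strands and near-identical copies may share reads. Over 36 pairs of replicates the correlation of log2 values was 0.939 to 0.993, and every pair differed beyond counting error (chi-square per degree of freedom at least 17.0).

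Levels were analysed as log2(value + 1) for genes with a mean of at least 10 (74.1% of genes), so slopes understate changes of scarce genes. Slopes on log2 of each library row, in SD units, were fitted with limma 3.58.1 (R 4.3.3, robust trend) over all genes and adjusted with the Benjamini-Hochberg method at 0.05, after the script was tested on simulated data. The 3 library rows stayed out of gene tests. edgeR 4.0.16 and DESeq2 1.42.0 were run on recovered reads. Other alternatives were the pseudocount (0.5 and 5), the filter (none and a mean of 100), TMM and equal-total scaling, rows as shares, depth or the other row as covariate, and each replicate left out. Library relations were tested by exact permutation. Named members were the 10 with the largest statistics on each row, the 5 most abundant, the 5 most variable, the 3 least like the rest and those next to the minimum mean; Trim28, Setdb1 and the 3 strongest of the corepressor list in each fit were added. Members and lists were chosen with earlier results of these data known.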

Additional observations from a re-analysis of the deposited data

Results flagged for a closer look

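Of 40 values examined for a replicate far from the rest (36 named members, 3 library rows and the median member deviation), 3 had such a replicate. For independent values chance gives about 1 in 20. These values vary together, and many members were named for their slopes or spread in these data. The number flagged is therefore not set against chance. All 3 involved replicate 5. The no_feature row was lowest there, with a gap to the next replicate that was 0.665 of the whole range on the log2 scale. Zfp444 was highest there, with a gap of 0.573 of its range, and Zfp473 was lowest there, with a gap of 0.504.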

How the results depend on the processing

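On multiply aligned reads, the counts of 67 members that fell and 20 that rose became 77 and 13 with equal totals, which shifted the median gene by -0.12 to 0.16 between libraries and gave 1419 rising and 3365 falling genes in all against 2452 and 2740. With depth as a covariate they were 54 and 13 (29.2% and 7.03%), against 16.2% and 13.1% of all genes tested. With the other row as covariate they were 0 and 0, and 0 of all genes tested were called. Leaving out 1 replicate gave 26 to 69 falling (14.1% to 37.3%) and 4 to 21 rising (2.16% to 11.4%), the lowest without replicate 5. Of all genes tested, 10.9% to 20.9% fell and 4.94% to 19.0% rose in these fits, also lowest without replicate 5. On the no_feature row, where no member was called, DESeq2 gave 44 higher and 12 lower (11.7% and 7.90% of all genes tested). The share of counted reads gave 63 and 14 (15.7% and 13.4% of all genes tested). Leaving out 1 replicate gave 0 to 40 higher and 0 to 12 lower, the most without replicate 8 (11.1% and 8.95% of all genes tested). The mean pairwise correlation of 0.11 was 0.25 with equal totals, 0.0605 with the multiply aligned row regressed out, and 0.0717 to 0.12 with 1 replicate left out. The cause of these changes was not tested.

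For 36 named members, the slope on multiply aligned reads kept its direction and its side of the threshold in 348 of 387 fits under other alternatives and in 307 of 324 with 1 replicate left out. Only Zfp583 reversed, to 0.350 with the other row as covariate and, with 1 replicate left out, from -0.275 to 0.0880 without replicate 5. On no_feature the slope kept both in 319 of 387 and 297 of 324. With the other row as covariate it reversed for Zfp136 (-0.0948), Zfp148 (-0.0134), Zfp236 (-0.0578), Zfp266 (-0.0155), Zfp292 (-0.0192), Zfp300 (-0.0745), Zfp365 (-0.201), Zfp366 (-0.00148), Zfp57 (-0.00644), Zfp597 (-0.256), Zfp800 (-0.0158), Zfp871 (-0.193), Zfp410 (0.00845) and Zfp503 (0.0444). With 1 replicate left out it ran from -0.0122 to 0.152 for Zfp207 and from -0.0796 to 0.0225 for Zfp410, both reversing without replicate 5. No paired analysis was possible because all replicates form 1 group.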
